A study of Caenorhabditis elegans with 2 samples.

Results

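The 7 genes described here encode DVE-1 itself and factors known to act with it or beside it in the mitochondrial unfolded protein response of Caenorhabditis elegans. They are dve-1, ubl-5, atfs-1, zip-3, ulp-4, smo-1 and hda-1, chosen by name out of 19973 annotated protein-coding genes. The question was whether tagged DVE-1 was found at the genes of its own partners, and where. Binding was measured by chromatin immunoprecipitation and sequencing with an antibody against GFP, in 1 group of whole L4 hermaphrodites with 2 biological replicates. The strain was OP398, with the genotype unc-119(tm4063) III; wgIs398, and it stably expresses DVE-1 with a GFP-FLAG tag at its C-terminus. Both replicates thus carry the unc-119 allele and the transgene, and the labels list no stress treatment and no second condition. The labels give neither the promoter nor the extent of the transgene. Whole animals mix all tissues, so a weak peak in many cells and a strong one in few cells cannot be told apart.

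The mitochondrial unfolded protein response is the programme by which cells raise chaperones and proteases when mitochondria fail. In worms the bZIP factor ATFS-1 is normally taken up and destroyed by mitochondria, and it goes to the nucleus when import is impaired. DVE-1 has homeodomains and resembles the SATB chromatin proteins of mammals, and it gathers in the nucleus with the ubiquitin-like protein UBL-5 under the same stress. SUMO, the small modifier encoded by smo-1, can be attached to both DVE-1 and ATFS-1, and the protease ULP-4 removes it. HDA-1 is a class I histone deacetylase known to work with DVE-1, and ZIP-3 is a bZIP protein known to hold the response back.

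Of the 7 genes, 5 had at least 1 summit of the optimal peak list in a window from 5000 bp upstream of the most distal 5' end to the 3' end. The optimal list holds 7262 peaks on the ce11 assembly, set by the authors' threshold on reproducibility. They were the 7262 strongest regions of a pooled list made from both replicates. Of these peaks, 6828 had a summit within 100 bp in the list of each replicate. A place in the optimal list thus does not show that a peak was among the strongest in each replicate. Windows of the same kind held a summit at 38.4% of all protein-coding genes. The 5 genes were ubl-5, atfs-1, zip-3, ulp-4 and smo-1, while dve-1 and hda-1 had none. The same 5 genes also had a summit in a promoter window, from 1000 bp upstream to 200 bp downstream of any annotated 5' end, against 21.7% of all protein-coding genes. Among the 7262 strongest regions of replicate 2 alone, ulp-4 had no promoter summit and hda-1 had one, and in either replicate alone hda-1 had a summit in its gene window. The windows of the 7 genes held 17 summits, 2.84 per 10 kb, and all windows together gave 0.79 per 10 kb. The median was 2 summits for the 7 genes and 0 for all protein-coding genes, with a median window of 9038 bp against 7027 bp. The members were chosen with earlier results of these data known, so these counts describe them and carry no test.

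**Figure D1:**
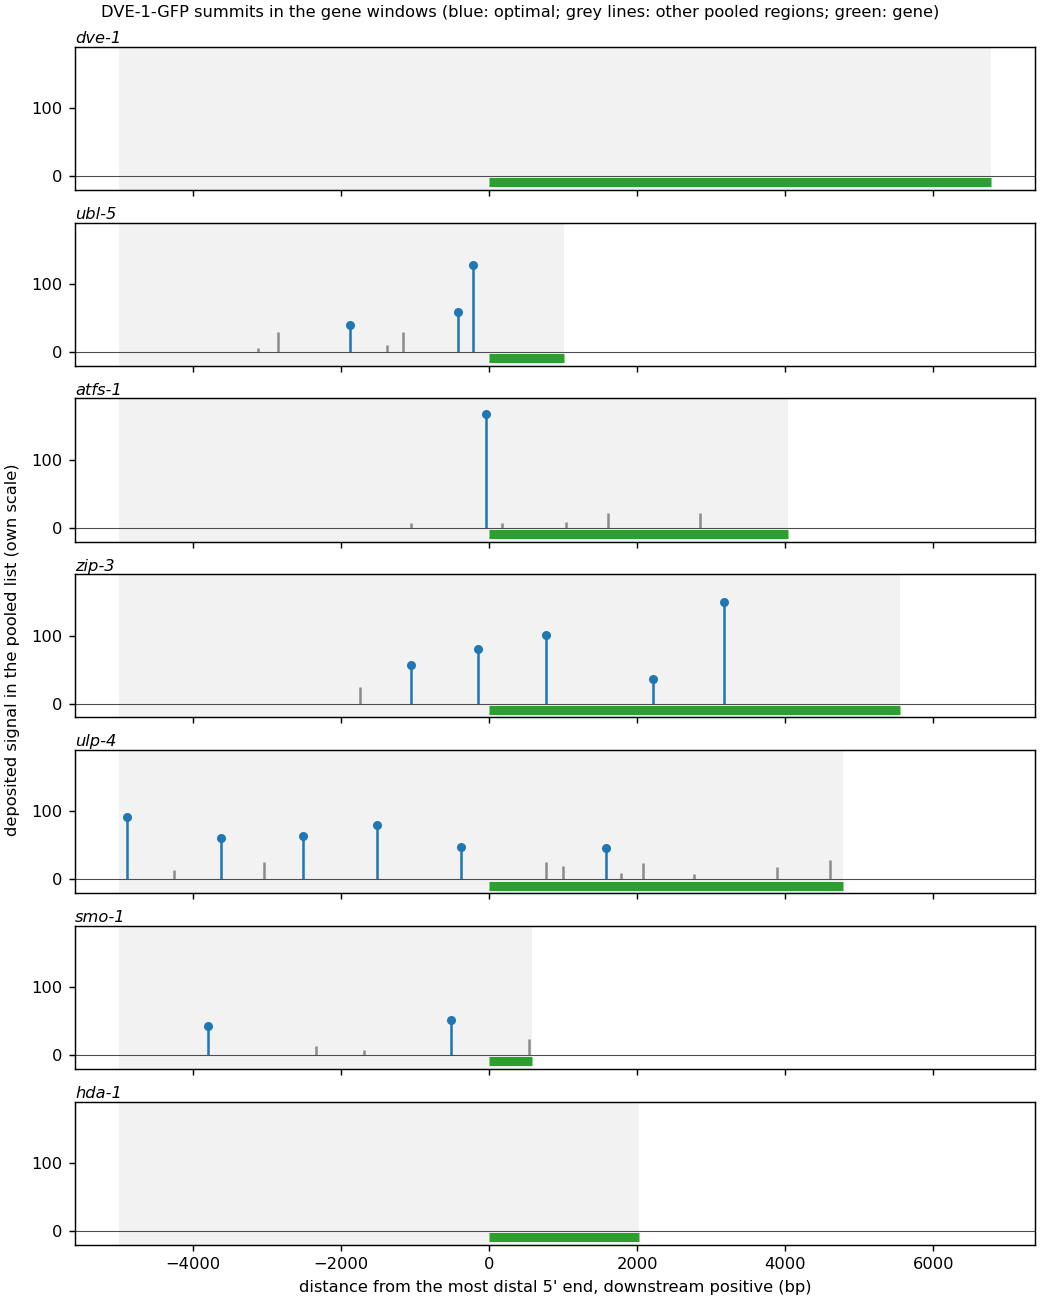
Each panel shows the window of 1 gene, with distance from its most distal 5' end in bp on the horizontal axis and the deposited signal of the pooled list on the vertical axis. Blue stems are optimal summits, grey lines other pooled regions, green bars the gene and the grey field the window. The tallest stem is that of atfs-1 at 167, zip-3 and ulp-4 carry rows of 5 and 6 stems, and the panels of dve-1 and hda-1 hold no stem.

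At atfs-1 a single optimal summit lay 38 bp upstream of the most distal of its annotated 5' ends. The summit was at position 14193625 of chromosome V, in a region of 160 bp between 14193521 and 14193680. It was the strongest of the 17 summits, with a deposited signal of 167 and rank 477 of 7262. Signals are on a scale of their own in each list, so each replicate was divided by its median over the optimal peaks. The relative signal was 2.07 in replicate 1 and 2.85 in replicate 2, a mean of 2.46 ± 0.55 (SD, n = 2), and both replicates lay above the median peak. The gene atfs-1 runs from 14193663 to 14197700 on the plus strand. The gene upstream, ints-2, lies on the same strand, and its 3' end was 1501 bp away. The rest of the window held 5 weaker regions of the pooled list, none of them in the optimal list. The sequence shown here runs from 75 bp before the summit to the last base before the 5' end (ce11, chrV:14193550-14193662, plus strand). Capitals mark GAGACGCAG read on the other strand, letters that an earlier analysis of these data had named. It began 26 bp before the summit.
atfs-1 promoter: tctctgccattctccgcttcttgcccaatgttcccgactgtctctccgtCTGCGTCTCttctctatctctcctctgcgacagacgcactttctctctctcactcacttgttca

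The gene zip-3 (chromosome II, 13951904 to 13957457, minus strand) carried 5 optimal summits over its upstream region and its introns. The strongest lay inside the gene, in an intron 3173 bp downstream of the most distal 5' end and 1708 bp downstream of the other annotated 5' end. Its relative signal was 2.57 in replicate 1 and 1.98 in replicate 2, a mean of 2.27 ± 0.42 (SD, n = 2), and it ranked 673 of 7262. The second was also in an intron, 692 bp upstream of the internal 5' end, with 0.99 in replicate 1 and 1.88 in replicate 2. Only replicate 2 was above the median peak at that summit, and the mean was 1.43 ± 0.63 (SD, n = 2). The summit nearest to the distal 5' end, 151 bp upstream, had 1.11 and 1.28 in replicates 1 and 2, a mean of 1.19 ± 0.13 (SD, n = 2). The other two were weaker, with means of 0.98 ± 0.14 at 1056 bp upstream and 0.56 ± 0.08 at 2217 bp downstream (SD, n = 2). The last of these ranked 6937 of 7262, close to the end of the list. For each of the 5 summits the nearest annotated protein-coding 5' end was one of zip-3 itself. The upstream neighbour rpi-1 lies on the same strand with its 3' end 1665 bp away.

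The letters TGATAA, a site of GATA factors, were found on either strand within 50 bp of 4 of the 5 zip-3 summits and of 7 of all 17 summits of the members (41.2%). Among all 7262 optimal summits the share was 29.3%. Besides the 4 at zip-3, the member summits with TGATAA were 1 each at atfs-1, ulp-4 and smo-1. At atfs-1 these letters were not in the sequence printed above, which ends at the 5' end. At 3 zip-3 summits the letters began within 12 bp before the summit. Within 100 bp the shares were 41.2% and 42.8%, so the members did not stand above all peaks in the wider window. The 4 other motifs were not found within 50 bp of any member summit. They were the homeodomain core TAATTA (2.29% of all summits), the bZIP sites TGACGTCA (0.991%) and TGACTCA (2.29%), and the E-box CACGTG (5.58%). The letters GAGACGCAG lay within 50 bp of 1 member summit, that of atfs-1, and of 6.33% of all summits. The 3 zip-3 sequences are shown because the same letters sit close to their summits. Each has 151 bases with the summit in the middle, reads 5' to 3' on the minus strand of zip-3, and comes from the RefSeq genome of the same build as ce11. Capitals mark TGATAA and GAGACGCAG in either direction, the latter only at the edge of the last sequence, 74 bp before the summit. The regions are chrII:13957533-13957683, chrII:13956609-13956759 and chrII:13954209-13954359.
zip-3, 151 bp upstream: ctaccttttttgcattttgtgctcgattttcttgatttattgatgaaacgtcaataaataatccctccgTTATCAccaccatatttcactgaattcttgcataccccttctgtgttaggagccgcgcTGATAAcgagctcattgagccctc
zip-3, 773 bp downstream: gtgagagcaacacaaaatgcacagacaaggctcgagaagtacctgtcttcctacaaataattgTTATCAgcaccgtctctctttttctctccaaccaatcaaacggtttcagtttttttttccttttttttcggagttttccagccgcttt
zip-3, 3173 bp downstream: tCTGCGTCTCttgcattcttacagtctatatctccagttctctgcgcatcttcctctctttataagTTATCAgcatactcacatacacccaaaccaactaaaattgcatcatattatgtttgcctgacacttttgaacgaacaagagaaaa

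Of the 2 SUMO pathway members, ulp-4 had the largest number of summits among the 7 genes. The gene lies on the plus strand of chromosome II from 8129960 to 8134742. It had 6, of which 5 lay in the 5049 bp between ulp-4 and its divergent neighbour ire-1, the gene of a sensor of endoplasmic reticulum stress. The neighbouring summits of this row were between 1008 and 1257 bp apart. The strongest was at the far end, 169 bp upstream of the 5' end of ire-1 and 4881 bp upstream of ulp-4. It had a relative signal of 1.59 in replicate 1 and 1.37 in replicate 2, a mean of 1.48 ± 0.16 (SD, n = 2), and rank 2052. The next, 3624 bp upstream of ulp-4, was also nearer to ire-1 and had 0.98 and 0.95. The summit in the middle of the row, at 2516 bp, had 0.96 and 0.94. At both of these the replicates differed by little and lay just under the median peak. The following one, at 1508 bp, had 0.90 in replicate 1 and 1.39 in replicate 2. The summit in the promoter window of ulp-4 itself was 379 bp upstream and differed most between the replicates, with 1.26 in replicate 1 and 0.50 in replicate 2. Its mean was 0.88 ± 0.54 (SD, n = 2). It ranked 2516 in replicate 1 and 8106 in replicate 2, outside the 7262 strongest regions of the latter. The sixth summit lay in an intron 1579 bp downstream, with 0.47 and 0.87.

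The row upstream of ulp-4 held summits of unlike base composition. Within 50 bp of the summit the share of G and C was 50.5% at 3624 bp, 37.6% at 2516 bp and 34.7% at 379 bp upstream. Over the 17 summits the share ran from 32.7% to 62.4% with a median of 39.6%, against 40.6% for all optimal summits. The sequences of the strongest summit, beside ire-1, and of the one at 2516 bp are shown to compare an end and the middle of the row (chrII:8125004-8125154 and chrII:8127369-8127519, plus strand). The first holds none of the searched letters, and the second holds TGATAA in either direction 3 times.
ulp-4, 4881 bp upstream: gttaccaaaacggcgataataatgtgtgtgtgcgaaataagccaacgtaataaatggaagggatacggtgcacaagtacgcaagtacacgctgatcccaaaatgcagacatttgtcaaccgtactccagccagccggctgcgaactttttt
ulp-4, 2516 bp upstream: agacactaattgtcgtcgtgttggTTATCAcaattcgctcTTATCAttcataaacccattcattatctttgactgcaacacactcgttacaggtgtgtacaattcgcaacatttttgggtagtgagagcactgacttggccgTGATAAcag

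The gene smo-1 (chromosome I, 1340678 to 1341265, plus strand) had 2 weak summits. The nearer lay 509 bp upstream, in the 904 bp between smo-1 and K12C11.7 on the same strand. It had a relative signal of 1.01 in replicate 1 and 0.60 in replicate 2, a mean of 0.80 ± 0.29 (SD, n = 2), and rank 4860. The farther one, 3795 bp upstream, was only 133 bp upstream of K12C11.6 and had 0.82 in replicate 1 and 0.45 in replicate 2. Both were lower in replicate 2, where the farther one ranked 8931. The gene is 588 bp long in a window of 5588 bp.

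At ubl-5, 2 optimal summits lay in the 499 bp between its 5' end (5607826 to 5608841, minus strand) and vha-10, the next gene upstream on the same strand, which encodes a subunit of the vacuolar ATPase. The stronger was 221 bp upstream of ubl-5 at position 5609062 of chromosome I, with a relative signal of 1.50 in replicate 1 and 2.19 in replicate 2. Both replicates were above the median peak, the mean was 1.85 ± 0.49 (SD, n = 2), and the rank was 1012. The weaker one was 421 bp upstream, 200 bp from the first, and had 0.44 in replicate 1 and 1.14 in replicate 2. It was among the 7262 strongest regions only in replicate 2, with rank 3022, and ranked 9587 in replicate 1. The remaining summit, 1882 bp upstream, lay in an intron of trpp-8 and was 453 bp upstream of vha-10, nearer to that gene than to ubl-5. Its signals were 0.66 and 0.58.

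**Figure D2:**
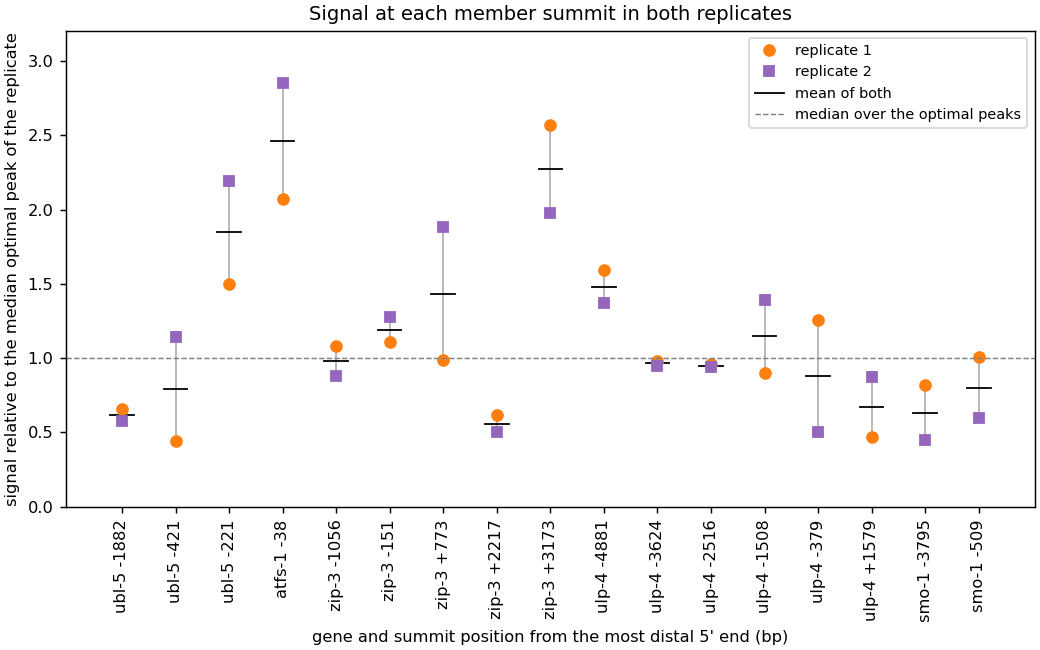
Each of the 17 summits is plotted with its signal relative to the median optimal peak of the replicate on the vertical axis, with a circle for replicate 1, a square for replicate 2 and a black bar for their mean. The dashed line is the median optimal peak. The means run from 0.56 to 2.46, and the replicates lie farthest apart on the log2 scale at ubl-5 -421 and ulp-4 -379.

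Across the 17 summits, 10 were relatively higher in replicate 1 and 7 in replicate 2. The log2 ratio of replicate 1 to replicate 2 ran from -1.38 to 1.35, and 11 of the 17 lay within 0.66 of 0, the SD of this ratio over the 6828 optimal peaks found in both replicates. The 17 summits had a median rank of 3876, and 7 of them were above the median signal of the optimal list. Of the 17, 12 were among the 7262 strongest regions of both replicates. For this count and for the 11 of 17, no share over all optimal peaks is given, so they are not compared with other peaks. With 2 replicates the order of the strongest summits of the 5 genes is not fixed. It was atfs-1, zip-3, ubl-5, ulp-4 and smo-1 by the mean, but zip-3 came before atfs-1 and ulp-4 before ubl-5 in replicate 1 alone, and ubl-5 before zip-3 in replicate 2 alone.

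By position, 12 of the 17 summits lay between genes, 5 in introns and 0 in exons. Of all optimal summits, 64.4% lay between protein-coding genes, 24.7% in introns, 3.77% in coding exons and 7.08% in untranslated exons. At 13 of the 17 the nearest protein-coding 5' end belonged to the member. One of these was close to a tie, 2516 bp from ulp-4 and 2534 bp from ire-1. The exceptions were the pair near ire-1, the one near vha-10 and the one near K12C11.6. No annotated noncoding gene lay within 300 bp of any of the 17 summits. For the nearest 5' ends and the noncoding genes no share over all optimal summits is given, so these counts are not compared with other peaks.

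**Figure D3:**
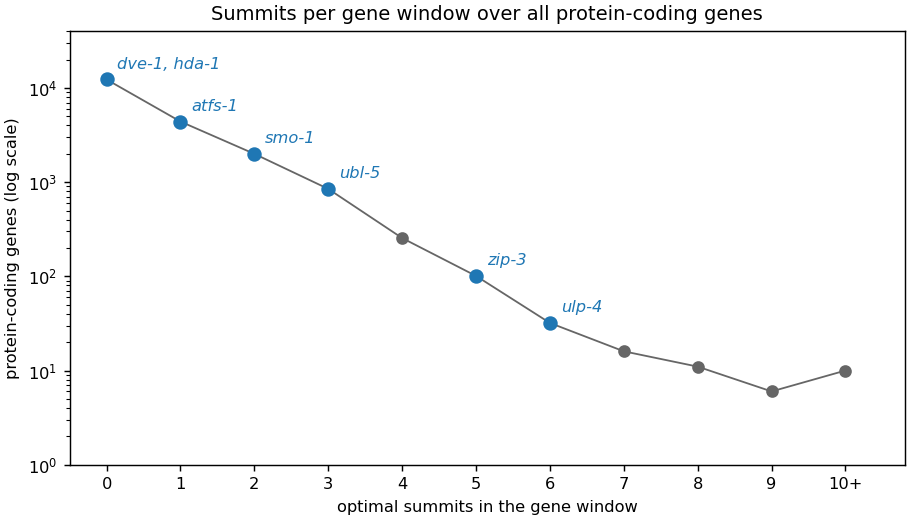
The horizontal axis gives the number of optimal summits in the gene window and the vertical axis, on a log scale, the number of protein-coding genes with that number, with 10 or more pooled in the last point. The 7 genes are marked in blue, from 0 at dve-1 and hda-1 to 6 at ulp-4.

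Windows with as many summits as those of zip-3 and ulp-4 were few. Of all protein-coding genes 0.881% had 5 or more summits, a limit set after these values were seen. At least 6 were found at 0.376%. The window of zip-3 was 10554 bp long and that of ulp-4 9783 bp, both longer than the median window.

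The gene dve-1 showed no region of its own in any of the 4 lists. The gene lies from 427035 to 433812 on the minus strand of chromosome X, and its window held 0 of the 7262 optimal peaks and 0 of the 30000 regions in the pooled list and in the list of each replicate. Those relaxed lists reach far below the optimal threshold. The strain carries a transgene of tagged dve-1, and whether it affects the calls at this locus was not tested. The lack of a region is thus not shown to be a lack of binding. The nearest summit upstream was 15668 bp from the 5' end, inside F52D1.2, with rank 6421. On the other side the nearest was 23901 bp past the 3' end, with rank 6407. The stretch between them was 46346 bp in the pooled list, 46288 bp in replicate 1 and 46354 bp in replicate 2. It took in 4 whole genes, namely dve-1, R04A9.1, ZK1193.2 and the collagen gene col-19. Such an absence was common among all genes, since 38.3% had no region of the pooled list or of either replicate in their window, a criterion set after the values at dve-1 were seen. A pooled stretch at least as long held 23.1% of all protein-coding genes. Within 20000 bp on either side of dve-1 there was 1 pooled region, a density of 0.21 per 10 kb against 3.53 for the whole of X. By the same measure, 15.4% of all protein-coding genes had as few or fewer. At unc-119, the gene mutated in this strain, the window held no optimal summit but 2 pooled regions. Within 20000 bp on either side of unc-119 there were 3 pooled regions, and 22.1% of all protein-coding genes had as few or fewer.

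**Figure D4:**
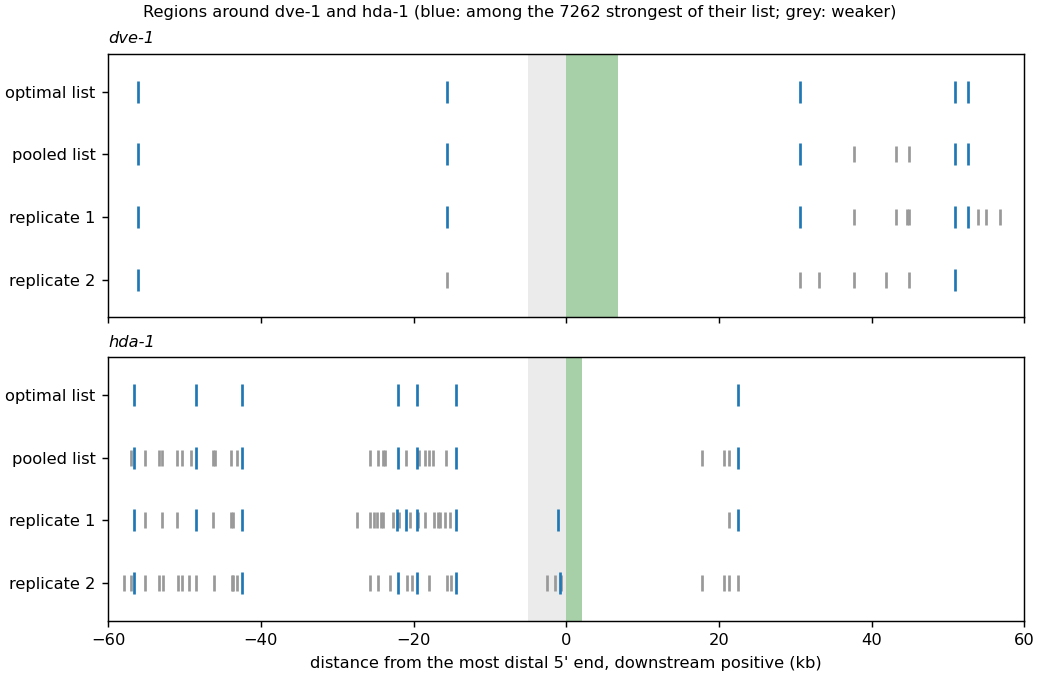
Regions of the 4 lists are drawn as ticks by distance from the most distal 5' end in kb, above for dve-1 and below for hda-1, with the window in grey and the gene in green. Blue ticks are among the 7262 strongest of their list. The row of every list is blank across dve-1, while at hda-1 both replicates have a blue tick just upstream of the gene and the pooled and optimal lists have none.

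The gene hda-1 (chromosome V, 14525389 to 14527411, plus strand) differed from dve-1 in that both replicates had a region upstream of it. In replicate 1 the summit was 1020 bp upstream, at position 14524369 of chromosome V, with a deposited signal of 20.3 and rank 5965. In replicate 2 it was 870 bp upstream, at position 14524519, with 26.2 and rank 5792. Relative to the median optimal peak the signal was 0.69 in each replicate, and the summits were 150 bp apart. The pooled list had no region over a stretch of 32319 bp around hda-1, so the optimal list, which was drawn from it, could not hold one there. At optimal peaks found in both replicates the pooled signal was close to the sum of the replicate signals, with a median ratio of 1.00 and 0.91 to 1.09 from the 5th to the 95th percentile. The sum at hda-1 was 46.5, and the weakest optimal peak had 34.7. That ratio comes only from peaks present in the pooled list, so it does not give the pooled signal to expect where that list is empty. Why the list is empty at hda-1 was not tested. Of all protein-coding genes, 0.31% combined an empty pooled window with a region that ranked within the first 7262 in both replicates, again a criterion set after these values were seen. Counted by regions, 5605 of the strongest in replicate 1 had a counterpart within 200 bp among the strongest in replicate 2, and 59 of these (1.05%) had no pooled summit within 200 bp. The sources used here do not say whether or how the pooled list was filtered.

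Both hda-1 summits lay between hda-1 and the divergent gene ril-1, whose 5' end was 240 and 390 bp away and thus nearer than that of hda-1. The noncoding gene C53A5.18 lies between the genes, and the summit of replicate 1 fell inside it, while that of replicate 2 was 19 bp past its end. The sequences around both summits are shown, 151 bases each on the plus strand, since they carry the strongest signal found at hda-1 (chrV:14524294-14524444 and chrV:14524444-14524594). They meet at 1 shared base and hold none of the searched letters.
hda-1, replicate 1 summit: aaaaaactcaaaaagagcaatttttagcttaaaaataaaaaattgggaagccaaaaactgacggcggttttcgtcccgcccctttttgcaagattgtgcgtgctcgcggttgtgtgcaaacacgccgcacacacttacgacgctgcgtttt
hda-1, replicate 2 summit: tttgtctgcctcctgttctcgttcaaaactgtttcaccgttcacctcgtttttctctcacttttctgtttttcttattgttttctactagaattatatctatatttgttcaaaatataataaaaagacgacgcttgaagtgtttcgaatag

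Other genes of the same pathways are set here beside the shares over all protein-coding genes, 21.7% for the promoter window and 38.4% for the gene window. Of 7 further SUMO pathway genes, 2 (28.6%) had an optimal summit in the promoter window, a share near that of all genes, and 5 (71.4%) in the gene window. The promoter summits were at ubc-9, the gene of the SUMO conjugating enzyme (1.34 ± 0.12), and uba-2, of the activating enzyme (0.68 ± 0.13), where the summit was 18 bp upstream of vps-25 and 295 bp upstream of uba-2 (relative signal, SD, n = 2). The protease genes ulp-1, ulp-2 and ulp-5 had none in the promoter window, while ulp-4 had 1. In the gene window ulp-1 had 1 summit, ulp-2 had 2, ulp-5 had none and ulp-4 had 6. The promoter summit of ulp-4 ranked 8106 in replicate 2. With the strongest regions of replicate 2 alone, or with the strongest 3631 optimal peaks, ulp-4 had 0 promoter summits. The promoter contrast between ulp-4 and the other protease genes is thus not shown to be a difference in binding. Of 12 genes for other deacetylases and for subunits of deacetylase complexes, 7 (58.3%) had an optimal summit in the promoter window. All 12 (100%) had one in the gene window, whereas hda-1 had none in the optimal list. That list could not hold one at hda-1, since the pooled list was empty over 32319 bp there. Each replicate alone had a region in the hda-1 window, with rank 5965 in replicate 1 and 5792 in replicate 2. The contrast between hda-1 and this list of 12 genes is thus not shown to be a difference in binding. By the deposited signal of the pooled list the first 4 promoter summits of this list were at lin-53, which encodes a histone chaperone (3.90 ± 0.24, shared with nra-2), lin-40, of a subunit of the NuRD complex (1.24 ± 0.45), sin-3, of a corepressor scaffold (1.19 ± 0.18), and chd-3, of a chromatin remodeller (1.08 ± 0.11; relative signal, SD, n = 2). The next was at dcp-66, with a pooled signal of 71.2 against 72 at chd-3, and its relative signal of 1.24 ± 0.29 (SD, n = 2) was above those of sin-3 and chd-3. The paralogs hda-2 and hda-3 had 2 and 1 summits in the gene window and none in the promoter window. The gene egl-27 had 10 summits in its gene window, more than any of the 7 members.

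Of 15 further genes of mitochondrial stress signalling, 8 (53.3%) had a promoter summit and 10 (66.7%) a summit in the gene window. The strongest was at wwp-1, the gene of a ubiquitin ligase known to act on ZIP-3, 270 bp upstream of its 5' end with rank 39 and a relative signal of 5.29 ± 0.68 (SD, n = 2). It was thus above every summit of the 7 members. The acetyltransferase gene cbp-1 followed with 4.62 ± 0.08, then the chaperonin gene hsp-60 with 4.17 ± 0.82, where the summit was nearer to Y22D7AL.10, and rheb-1, the gene of a small GTPase of TOR signalling, with 4.16 ± 0.63 (SD, n = 2). No summit was found in the gene windows of haf-1, nfyb-1, gcn-2, lin-65 and dnj-10. These lists were also put together with earlier results known.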

How the data were processed

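Tagged DVE-1 was measured by ChIP-seq in 2 biological replicates of L4 worms, with 1 control alignment shared between them (not analysed here as a library of its own). Per the labels the replicates are separate biosamples. Which aligner and peak caller were run, in which version, and at which threshold on the irreproducible discovery rate, is not given in the sources used here. Each deposited region carries a summit, a signal value from the authors' peak caller, and a −log10 q-value that served only to check the lists. Signal has its own scale in each list, and the lists give no read counts, so depth is unknown. Lists on ce10 were not used, and no coordinates were converted.

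Positions were read against Ensembl release 115 genes and the RefSeq genome of the same assembly as ce11. Annotated start codons read as ATG in 99.9% of 31805 cases. A gene window ran from 5000 bp upstream of the most distal 5' end to the 3' end, and a promoter window from 1000 bp upstream to 200 bp downstream of any of 29314 protein-coding 5' ends. Replicate values come from the region whose summit lay within 100 bp of the optimal summit. They were divided by the replicate's median over all optimal peaks found in it. Motifs were searched on both strands within 50 bp of a summit. Scripts used Python 3.11.15, numpy 2.4.6, pandas 2.3.3 and matplotlib 3.10.9, and the counting steps were checked on simulated data. With 1 group and no second condition, no test between groups was made.

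The members, windows and gene lists were chosen with earlier results of these data known. The genes named are the 7 members, genes whose 5' end was nearer to a member's summit, unc-119, and of each other list up to 4 genes with the strongest promoter summits by the deposited signal of the pooled list. Others were named after their values were seen: genes of those lists without a summit, paralogs of the members, egl-27, dcp-66, and the neighbours of dve-1 and hda-1.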

Additional observations from a re-analysis of the deposited data

How the results depend on the processing

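With 1 group, values carry an SD over 2 replicates and no test. A count was held to have moved when it changed by over 1.5 times or to 0, and a signal when it changed by more than the SD between replicates. With other peak sets, the strongest 3631 optimal peaks left 7 summits in the members' windows and 3 members with a promoter summit (ulp-4 and smo-1 lost it), while all pooled regions gave 39 summits, against 17 and 5 as reported. Dividing by the median over all regions of each relaxed list raised the median relative signal of the 5 strongest summits from 1.85 to 7.31, because weaker regions enter that median, with no change in the order of the genes. Within 5000 bp on either side of dve-1 there were 0 pooled regions, against 1 within 20000 bp. With smaller changes, smo-1 dropped out of the members with a gene window summit in the strongest 3631 peaks (4 members) and out of those with a promoter summit in the narrower promoter window (4 members). When the strongest regions of a single replicate stood in for the optimal list, leaving out either replicate gave 6 members with a summit, hda-1 being added, with 16 summits and 5 promoter members. These 5 were not the reported genes without replicate 1, where ulp-4 lost its promoter summit and hda-1 gained one. Leaving out a replicate moved the median relative signal between 1.59 and 1.98, and 1 region remained near dve-1. Of 38 alternatives for counts and medians, 33 stayed within these limits, and for single genes 20 of 25, although with 2 replicates leaving one out cannot move a single gene's mean beyond its SD. No paired analysis was possible because there is only 1 group.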
